A study of Mus musculus with 6 samples.

Results

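Integrin chains and the adaptor proteins of focal adhesions were followed in RNA sequencing of mouse brain endothelial cells. The rule takes 35 genes by name: 5 leukocyte integrin chains (Itgal, Itgam, Itgax, Itgb2 and Itgb7), the 20 other integrin chains and 10 adaptors, out of 23329 genes in the count files. All 35 were among the 14838 genes with enough counts to be tested. The label GLUT1EC-/- stands for mice that lack GLUT1, the glucose carrier encoded by Slc2a1, in endothelial cells, and the WT libraries came from littermates. Each group held 3 libraries from separate animals of the C57BL/6 strain, 8 weeks old. Endothelial cells were isolated from adult brains with magnetic beads (MACS), lysed without culture and sequenced as stranded mRNA. The driver of the deletion and the deleted exons are not given in the sources used here.

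Integrins are cell surface receptors made of an alpha and a beta chain. On the endothelium they hold the cell to laminin, collagen and fibronectin of the basement membrane, and on leukocytes they bind ICAM and VCAM molecules of the vessel wall. Talin and kindlin bind the tail of the beta chain and switch the receptor to its high-affinity form. The complex of ILK, PINCH and parvin, together with vinculin, paxillin and focal adhesion kinase, then joins the receptor to actin and to signalling. In the brain, the leukocyte chains are known from microglia, border macrophages and blood leukocytes and not from endothelial cells.

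Total counts ran from 35323299 to 37868681 in the libraries labelled GLUT1EC-/- and from 31874662 to 39424384 in WT. The targeted gene did not separate the groups: Slc2a1 was at 3735, 5414 and 3893 CPM (library-scaled counts, with TMM factors) in the libraries labelled GLUT1EC-/- and at 3984, 4479 and 4172 CPM in WT (log2 fold change 0.05, SE 0.18, edgeR adjusted p = 0.921). Every direction given here is therefore between libraries as labelled. GLUT1EC-/- 2 had a TMM factor of 0.884, against 1.02 to 1.05 in the other libraries labelled GLUT1EC-/- and 1.01 to 1.03 in WT. All 10 endothelial markers looked for were present, with summed levels of 16753 to 20056 CPM in the libraries labelled GLUT1EC-/- and 17474 to 18366 CPM in WT. None of these 10 passed the edgeR test (unadjusted p under 0.05 for 1 higher and 1 lower, and 0 by DESeq2 or limma-voom), and the most abundant, Flt1 and Ly6c1, were at 3302 ± 270 and 2734 ± 793 CPM in the libraries labelled GLUT1EC-/- and at 4358 ± 292 and 1873 ± 457 CPM in WT (SD, n = 3 each).

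Of the 35 genes, 1 changed: Itgal, which fell in the libraries labelled GLUT1EC-/-. That is 2.86% of them, against 1.31% of all tested genes called in either direction and 0.445% called lower (adjusted p under 0.05 over all tested genes, edgeR quasi-likelihood test). At an unadjusted p under 0.05, 1211 of the 14838 tested genes were higher and 937 lower, the background for each unadjusted count given here. Of the 35, 4 were higher and 3 lower at that level. DESeq2 called 1 higher (Itga5) and 2 lower (Itgal and Itga7), with 5.92% of all tested genes called by that tool, and limma-voom called Itgal only, with 0.997% of all tested genes called. Itgal was also the only call with RLE size factors, library size alone, non-robust dispersion, no filter and at least 1 CPM in 3 libraries, where 1.35%, 0.93%, 1.36%, 1.33% and 1.23% of all tested genes were called. The groups did not overlap for 6 of the 35 genes, or 17.1%, against 22.9% of all tested genes, so this share was near the background. The median log2 fold change was -0.80 over the leukocyte chains, 0.23 over the other chains and 0.04 over the adaptors, beside 0.01 over all tested genes. With single libraries left out, the leukocyte median ran from -1.32 (without GLUT1EC-/- 1) to -0.51 (without WT 2), and was -0.52 without GLUT1EC-/- 2. The median of the other chains ran from 0.12 (without GLUT1EC-/- 3) to 0.32 (without WT 2). The adaptor median ran from -0.041 (without GLUT1EC-/- 3) to 0.070 (without WT 2), and was also below 0 without WT 3, without GLUT1EC-/- 2 and under library size alone.

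**Figure D1:**
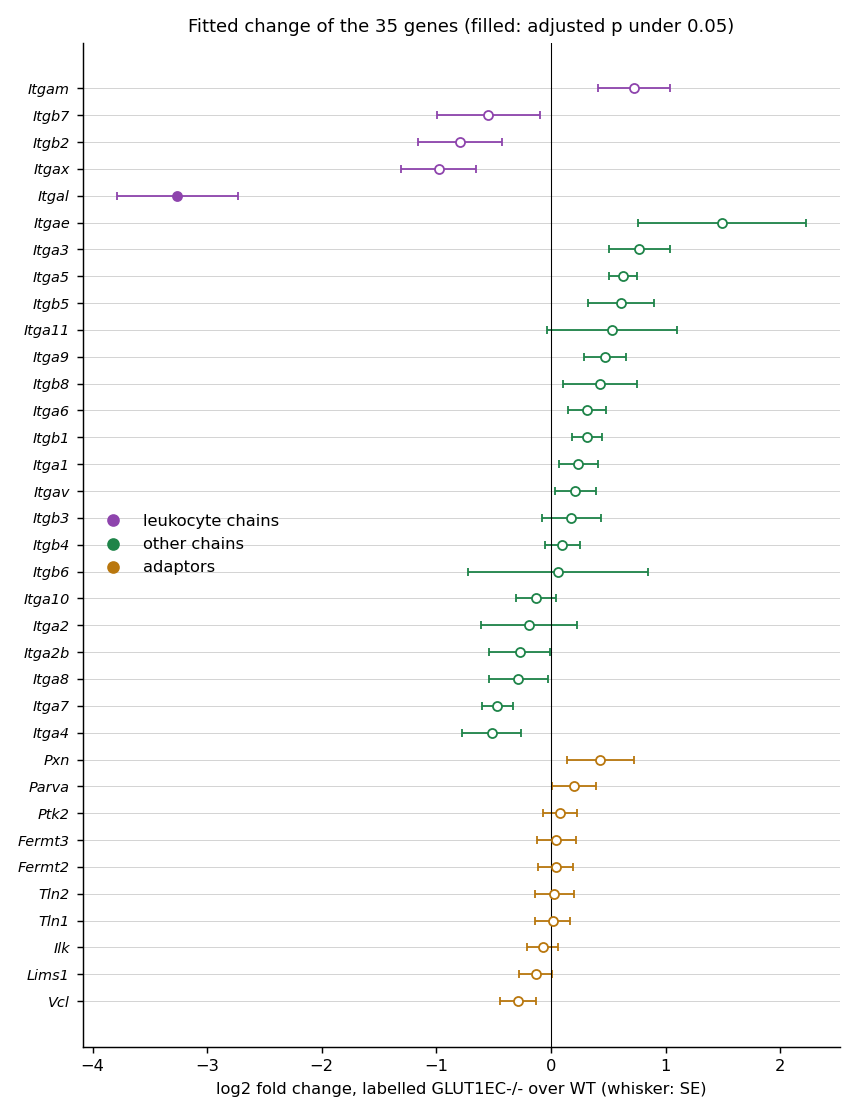
Log2 fold change of each of the 35 genes in the libraries labelled GLUT1EC-/- over WT, from edgeR, with whiskers for the SE. Filled points passed an adjusted p of 0.05. Itgal at -3.26 is the only filled point, and the 10 adaptors lie between -0.29 and 0.43.

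Levels of different genes were set side by side as CPM per kb of exon, with the length taken over all annotated exons of a gene. Itgb1, the beta chain that most matrix-binding alpha chains share, stood above all other chains, at 197 ± 6.6 CPM per kb in the libraries labelled GLUT1EC-/- and 159 ± 11.4 CPM per kb in WT (SD, n = 3 each). Among the 17 alpha chains, Itga6, the laminin receptor chain, had the highest level, with 50.8 ± 6.4 CPM per kb in the libraries labelled GLUT1EC-/- and 40.8 ± 5.9 CPM per kb in WT. Itga3, another laminin receptor chain, followed at 36.6 ± 15.2 CPM per kb in the libraries labelled GLUT1EC-/- and 21.4 ± 2.3 CPM per kb in WT. Itga5, the fibronectin receptor chain, came next at 30.7 ± 0.95 CPM per kb in the libraries labelled GLUT1EC-/- and 19.8 ± 1.5 CPM per kb in WT. The ranges of neighbours among these alpha chains overlapped over the 6 libraries, so their order is not fixed. All 6 libraries had more Itga5 per kb than any library had of Itga1, a collagen and laminin receptor and the next chain by the mean over all libraries (18.1 CPM per kb at the lowest against 14.3 CPM per kb at the highest). This order rests on the exon lengths used, 18.6 kb for Itga1 and 4.93 kb for Itga5. Before division by length Itga1 was the higher, at 162 to 266 CPM over all libraries against 89.3 to 156 CPM for Itga5. Itgam, next after Itga5 in the libraries labelled GLUT1EC-/-, was at 7.43 to 19.8 CPM per kb there. Itga5 was at 29.7 to 31.6 CPM per kb in the same libraries, so the 2 genes did not overlap within them. Only the Itgam value of GLUT1EC-/- 3 was above an Itga5 value, that of WT 3 (18.1 CPM per kb).

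Itgal ranked 14 among the alpha chains in the libraries labelled GLUT1EC-/-, at 0.905 ± 0.54 CPM per kb, and 7 in WT, at 8.70 ± 4.8 CPM per kb. Itgam ranked 4 in the libraries labelled GLUT1EC-/-, at 14.6 ± 6.4 CPM per kb, and 6 in WT, at 8.87 ± 0.95 CPM per kb. Among beta chains, Itgb5, which pairs with the alpha-v chain to bind vitronectin, and Itgb2, the leukocyte beta chain, followed Itgb1. Itgb5 was at 23.1 ± 10.2 CPM per kb in the libraries labelled GLUT1EC-/- and 15.1 ± 1.5 CPM per kb in WT. Itgb2 was at 10.7 ± 4.5 CPM per kb in the libraries labelled GLUT1EC-/- and 18.6 ± 7.7 CPM per kb in WT. The ranges of Itgb5 and Itgb2 overlapped. Itgae, Itga2, Itga11, Itgb8 and Itgb6 stayed under 1 CPM per kb in every library, and the 2 lowest, Itga11 and Itgb6, had total counts of 86 and 73 over all libraries, which leaves their fold changes with an SE of 0.57 and 0.79 on the log2 scale. Among the adaptors, Fermt2 was at 72.5 ± 10.9 CPM per kb in the libraries labelled GLUT1EC-/- and 70.4 ± 5.3 CPM per kb in WT, and Pxn, Tln1, Ilk and Vcl followed with ranges that overlapped from each to the next. Fermt3, the lowest, was at 4.31 ± 0.52 CPM per kb in the libraries labelled GLUT1EC-/- and 4.18 ± 0.66 CPM per kb in WT.

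**Figure D2:**
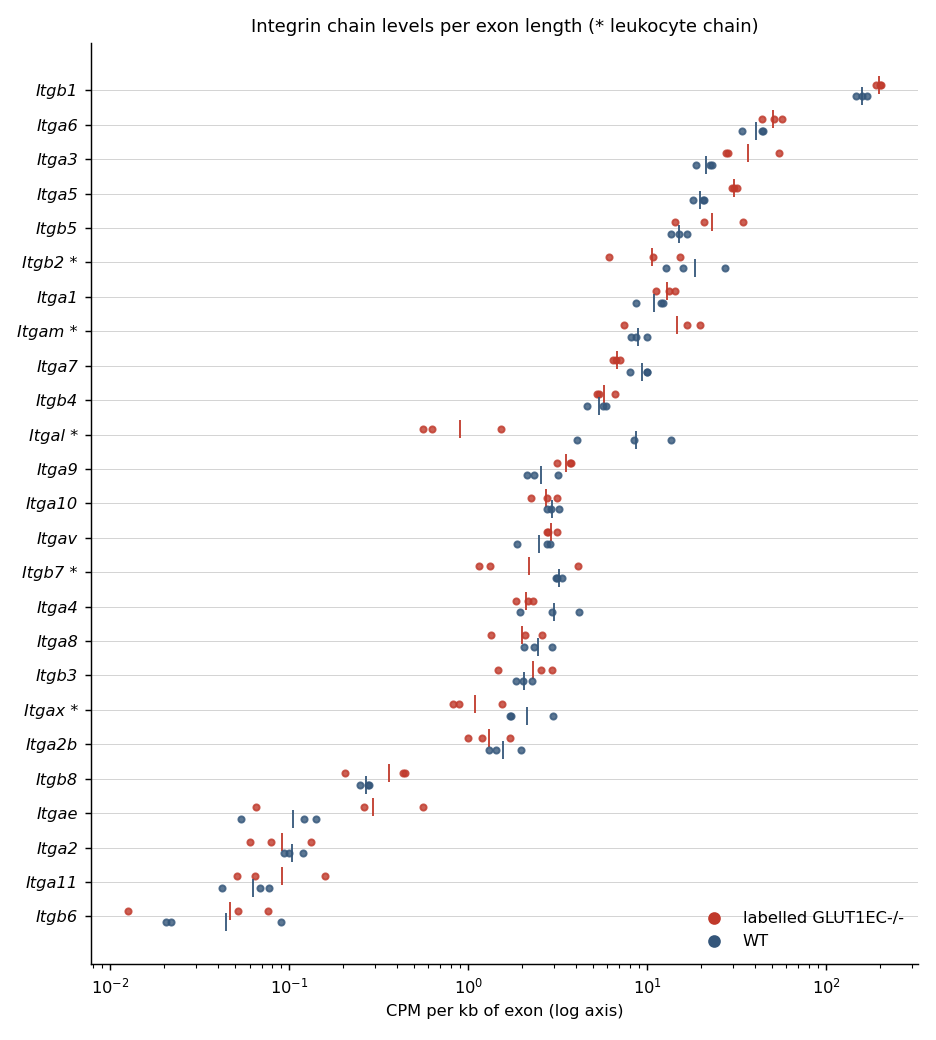
Levels of the 25 integrin chains in CPM per kb of exon on a log axis, 1 point per library and a tick for the mean of each group (n = 3), libraries labelled GLUT1EC-/- above WT. Itgb1 lies between 147 and 202 CPM per kb in all libraries, and the groups lie apart for Itgal.

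Itgal encodes CD11a, which joins with the Itgb2 product to form LFA-1, the leukocyte receptor for ICAM molecules. It is a plus-strand gene of chromosome 7, from 127296260 to 127335138 on GRCm38, and its longest transcript has 31 exons, none of them shared in position with another coding gene. It was at 10.02, 4.12 and 3.68 CPM in GLUT1EC-/- 1 to 3, from 384, 138 and 136 counts, and at 55.7, 89.1 and 26.7 CPM in WT 1 to 3, from 1799, 3049 and 1083 counts. All 3 libraries labelled GLUT1EC-/- lay below all 3 WT libraries, and WT 2 was the highest. The edgeR log2 fold change was -3.26 (SE 0.53; adjusted p = 0.0316), that is, 0.104 times the WT level. In a bulk sample, fewer cells of a type and less RNA per cell cannot be told apart. Animal numbers in the labels fall into the 200s (GLUT1EC-/- 1, WT 1 and WT 2) and the 500s (GLUT1EC-/- 2 and 3, WT 3), and the labels do not say what the series stands for. The log2 ratio of mean CPM was -2.85 within the 200s and -2.77 within the 500s, and with the series as a term the log2 fold change was -2.81 (edgeR adjusted p = 0.0314), where 0.0944% of all tested genes passed. The call was lost without WT 1, WT 2, WT 3, GLUT1EC-/- 1 or GLUT1EC-/- 2, at edgeR adjusted p-values of 0.18, 0.128, 0.0759, 0.0515 and 0.155. In these fits 0%, 0.00661%, 0.0332%, 0.213% and 5.73% of all tested genes passed. The call held without GLUT1EC-/- 3, at an edgeR adjusted p of 0.04, with 1.88% of all tested genes passing. The direction was the same each time, with log2 fold changes of -3.87 without GLUT1EC-/- 1 to -2.79 without WT 2.

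The other alpha chains that pair with Itgb2 did not pass. Itgam encodes CD11b, part of complement receptor 3 of microglia and myeloid cells, and was at 83.8, 37.3 and 99.6 CPM in GLUT1EC-/- 1 to 3 and at 43.3, 49.9 and 40.6 CPM in WT 1 to 3. GLUT1EC-/- 2 was below every WT library and the other libraries labelled GLUT1EC-/- were above them, so the groups overlapped (log2 fold change 0.72, SE 0.32, edgeR adjusted p = 0.346). Without GLUT1EC-/- 2, Itgam passed as higher, at a log2 value of 1.03 (edgeR adjusted p = 0.00246). In that fit 5.73% of all tested genes passed. Without GLUT1EC-/- 3 its log2 value was 0.44 (edgeR adjusted p = 0.428). Itgax encodes CD11c, known from dendritic cells and activated microglia. It was at 7.39, 3.97 and 4.28 CPM in GLUT1EC-/- 1 to 3 and at 8.35, 14.3 and 8.20 CPM in WT 1 to 3. The groups did not overlap, and the edgeR log2 fold change was -0.98 (SE 0.33; adjusted p = 0.216).

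Itgal, Itgam and Itgax stand on the plus strand of chromosome 7, with 728 kb between Itgal and Itgam and 11.1 kb between Itgam and Itgax. Of their summed CPM per kb, Itgal took 7.73%, 7.06% and 2.63% in GLUT1EC-/- 1 to 3 and 45.0%, 51.2% and 29.3% in WT 1 to 3. Itgam took 84.5%, 83.6% and 93.2% in GLUT1EC-/- 1 to 3, against 45.8%, 37.5% and 58.3% in WT 1 to 3. The summed level in these libraries was thus mostly Itgam in each library labelled GLUT1EC-/-, and in WT it was spread more evenly over Itgal and Itgam. These shares describe the libraries and were not tested.

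**Figure D3:**
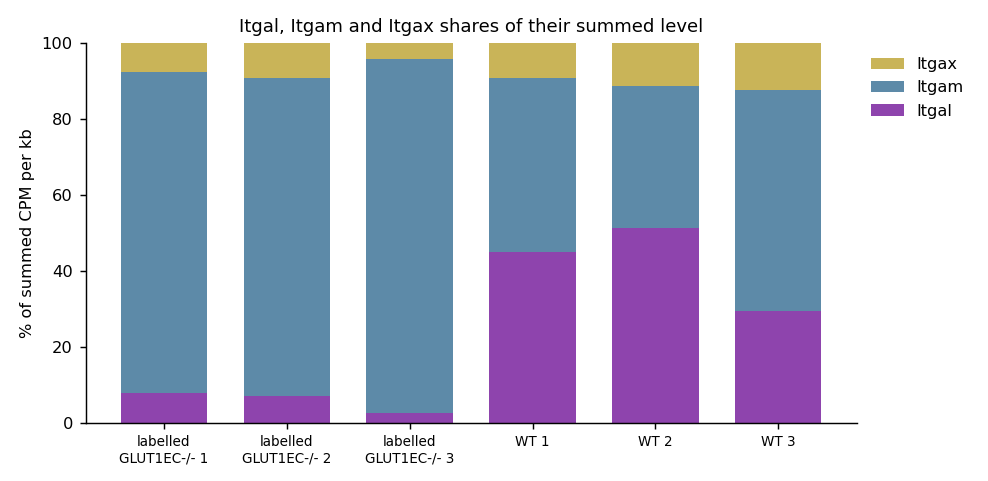
Share of Itgal, Itgam and Itgax in their summed CPM per kb, in percent, with 1 bar per library. Itgal makes up 2.63% to 7.73% in the libraries labelled GLUT1EC-/- and 29.3% to 51.2% in WT.

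Of the leukocyte beta chains, Itgb2 encodes CD18, without which none of these alpha chains reaches the surface. It was at 32.8, 18.7 and 46.5 CPM in GLUT1EC-/- 1 to 3 and at 48.3, 83.2 and 38.8 CPM in WT 1 to 3. The groups overlapped through GLUT1EC-/- 3 and WT 3 (log2 fold change -0.80, SE 0.37, edgeR adjusted p = 0.378). Itgb7, the beta chain of gut-homing lymphocytes, was at 11.4, 3.17 and 3.66 CPM in GLUT1EC-/- 1 to 3 and at 8.602, 9.29 and 8.72 CPM in WT 1 to 3. GLUT1EC-/- 1 was above all WT libraries and the other libraries labelled GLUT1EC-/- were below them. The log2 fold change of Itgb7 was -0.54 (SE 0.45, edgeR adjusted p = 0.624) and was -1.38 without GLUT1EC-/- 1, -0.24 without GLUT1EC-/- 2 and -0.28 without GLUT1EC-/- 3. Its log2 ratio of mean CPM was 0.35 within the 200s and -1.35 within the 500s.

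**Figure D4:**
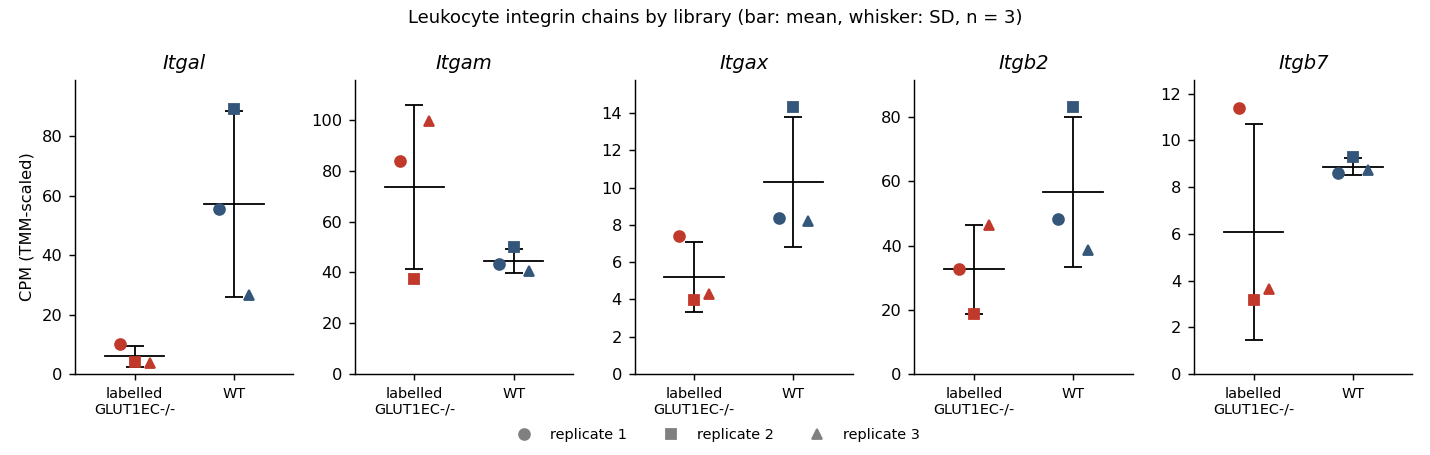
CPM of the 5 leukocyte chains in each library, with the mean and SD of 3 libraries per group and a marker shape per replicate. Itgal lies at 3.68 to 10.02 CPM in the libraries labelled GLUT1EC-/- and at 26.7 to 89.1 CPM in WT, and the groups overlap for Itgam, Itgb2 and Itgb7.

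Chains outside the leukocyte set that are also carried by blood cells gave no call. Itga4, which pairs with Itgb1 or Itgb7 and binds VCAM-1, was at 32.2, 25.9 and 30.3 CPM in GLUT1EC-/- 1 to 3 and at 40.9, 58.5 and 27.3 CPM in WT 1 to 3 (log2 fold change -0.52, SE 0.26, edgeR adjusted p = 0.415). Its log2 ratio of mean CPM was -0.62 within the 200s and 0.04 within the 500s. Itga2b, the alpha chain of the platelet fibrinogen receptor, was at 7.11 ± 2.06 CPM in the libraries labelled GLUT1EC-/- and 8.59 ± 1.96 CPM in WT (SD, n = 3 each). Its partner Itgb3, which also pairs with the alpha-v chain, was at 13.7 ± 4.5 CPM in the libraries labelled GLUT1EC-/- and 12.1 ± 1.2 CPM in WT. Itgae, the alpha chain of resident T cells that binds E-cadherin, was at 2.56, 1.19 and 0.298 CPM in GLUT1EC-/- 1 to 3 and at 0.650, 0.555 and 0.246 CPM in WT 1 to 3. It had an edgeR log2 fold change of 1.49 (SE 0.74; adjusted p = 0.411) from 199 counts in all.

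Markers of blood leukocytes and of brain myeloid cells were read beside the leukocyte chains. Of 8 markers of non-classical monocytes, 4 fell and 1 rose, against 0.445% of all tested genes called lower and 0.863% called higher. The same shares are the background for the edgeR calls in the other marker lists. Cd300e, a myeloid receptor, was at 0.235, 0.0299 and 0.108 CPM in GLUT1EC-/- 1 to 3 and at 5.82, 9.96 and 4.51 CPM in WT 1 to 3 (log2 fold change -5.69, edgeR adjusted p = 0.012). Emr4 (now Adgre4) and Treml4, further receptors of these cells, were lower by log2 fold changes of -5.49 and -5.43 (adjusted p = 0.0151 and 0.0164 by edgeR). The member that rose was Ace, angiotensin-converting enzyme, which brain endothelium also expresses. The summed level of the 8 was 2558 to 2901 CPM in the libraries labelled GLUT1EC-/- and 2415 to 3064 CPM in WT, most of it from Ace and Nr4a1. Without these, a choice made after the values were seen, the sum of the other 6 was 9.11, 2.72 and 5.20 CPM in GLUT1EC-/- 1 to 3 and 47.3, 90.1 and 34.2 CPM in WT 1 to 3. No marker of these cells was at 0 in any library. Their part in the Itgal result was not tested.

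For lymphocytes, 1 of 8 tested T and NK cell markers fell, with summed levels over the 10 listed of 2.897 to 8.72 CPM in the libraries labelled GLUT1EC-/- and 8.85 to 14.5 CPM in WT. This was Gzma, a granzyme, at 0.0522, 0 and 0.135 CPM in GLUT1EC-/- 1 to 3 and at 0.897, 0.993 and 1.63 CPM in WT 1 to 3 (edgeR adjusted p = 0.0432). All 8 tested T and NK cell markers had log2 fold changes below 0, with a median of -0.88. The NK cell markers Klrb1c and Ncr1 had 0 counts in at least 1 library labelled GLUT1EC-/-, and Klrb1c also in at least 1 WT library. Of 6 tested B cell markers, Cd79a, part of the B cell receptor, fell (log2 fold change -1.54, edgeR adjusted p = 0.0232), and the 7 listed summed to 5.53 to 10.5 CPM in the libraries labelled GLUT1EC-/- and 15.8 to 18.3 CPM in WT. Of 12 microglia markers, 2 rose, Trem2 (log2 fold change 1.45, edgeR adjusted p = 0.0316) and C1qb (log2 fold change 1.49, edgeR adjusted p = 0.0432). By value 10 of the 12 were above 0 and 2 below, with a median log2 fold change of 1.01. At an unadjusted p under 0.05, 8 were higher and 0 lower, and DESeq2 called 4 higher and limma-voom 2. The groups did not overlap for 4 of the 12, all higher, against 11.7% of all tested genes. The 12 summed to 923.5, 631 and 1490.3 CPM in GLUT1EC-/- 1 to 3 and to 478, 530.4 and 561 CPM in WT 1 to 3. The part of microglia in the Itgam values was not tested. No call among the marker and ligand lists held without WT 1, WT 2 or WT 3, and with the animal number series as a term those of Cd300e, Emr4, Treml4, Spp1, Dcn and Gfap held.

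No marker passed the edgeR test for border macrophages (0 of 8), classical monocytes (0 of 6), neutrophils (0 of 6 tested), dendritic cells (0 of 4 tested) or platelets (0 of 9 tested). At an unadjusted p under 0.05 these lists had 3, 1, 0, 0 and 0 members higher and 1, 1, 2, 2 and 2 lower. DESeq2 called 2, 1, 0, 0 and 0 higher and 1, 1, 0, 2 and 1 lower, and limma-voom called 0. Border macrophage markers summed to 454 to 647 CPM in the libraries labelled GLUT1EC-/- and 372 to 434 CPM in WT, with Stab1 and Mrc1 the most abundant at 423 ± 81 and 43.2 ± 0.36 CPM in the libraries labelled GLUT1EC-/- and 302 ± 29 and 37.3 ± 6.5 CPM in WT. Classical monocyte markers summed to 18.2 to 20.9 CPM in the libraries labelled GLUT1EC-/- and 11.7 to 16.97 CPM in WT, led by Vcan and by Chil3, counted as Chi3l3, at 9.999 ± 3.9 and 5.31 ± 4.5 CPM in the libraries labelled GLUT1EC-/- and 3.19 ± 0.89 and 1.96 ± 0.92 CPM in WT. Of these 6 markers, 3 had log2 fold changes above 0, up to 1.65, and 3 below 0, down to -2.42. Their median was -0.08, so the list had no common direction. Neutrophil markers summed to 18.8 to 26.4 CPM in the libraries labelled GLUT1EC-/- and 16.7 to 20.6 CPM in WT, led by Csf3r and Retnlg at 16.96 ± 7.4 and 1.02 ± 0.77 CPM in the libraries labelled GLUT1EC-/- and 11.2 ± 0.48 and 3.46 ± 0.75 CPM in WT. Csf3r made up the largest part of these sums. Of the 6 tested, 2 had log2 fold changes above 0, up to 1.54, and 4 below 0, down to -1.76, with a median of -0.11. Dendritic cell markers summed to 30.8 to 47.4 CPM in the libraries labelled GLUT1EC-/- and 47.0 to 63.8 CPM in WT, led by Zbtb46 and Ccr7 at 36.6 ± 8.2 and 2.1999 ± 1.15 CPM in the libraries labelled GLUT1EC-/- and 43.96 ± 8.9 and 5.74 ± 0.42 CPM in WT. Zbtb46 made up the largest part of these sums. Of the 4 tested, 1 had a log2 fold change above 0 (0.83) and 3 below 0, down to -2.36, with a median of -0.82. The dendritic cell markers Xcr1 and Clec9a had 0 counts in some libraries of both groups. Platelet markers, which bear on Itga2b, summed to 19.1 to 21.5 CPM in the libraries labelled GLUT1EC-/- and 21.8 to 39.4 CPM in WT, led by Gp1bb and Pf4 at 10.7 ± 1.2 and 3.46 ± 0.35 CPM in the libraries labelled GLUT1EC-/- and 11.1 ± 4.2 and 6.05 ± 1.1 CPM in WT. All 9 tested platelet markers had log2 fold changes below 0, from -0.05 for Gp1bb down to -1.22, with a median of -0.78.

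Genes that leukocytes use to switch integrins on gave 0 calls of 10 (edgeR, with 0 higher and 4 lower at an unadjusted p under 0.05, and 1 lower by DESeq2). They include Rasgrp2, which activates Rap1 upstream of talin, and Coro1a, an actin-binding protein of blood cells. Rasgrp2 was at 71.5 ± 28.2 CPM in the libraries labelled GLUT1EC-/- and 114 ± 11 CPM in WT, and Coro1a at 14.8 ± 4.4 CPM in the libraries labelled GLUT1EC-/- and 23.7 ± 7.1 CPM in WT (SD, n = 3 each). These 10 genes had a median log2 fold change of -0.41, and the groups did not overlap for 5 of the 10, all lower, against 11.2% of all tested genes. The cell surface ligands of leukocyte integrins also gave 0 calls of 8 tested (0 higher and 3 lower at an unadjusted p under 0.05, and 0 by DESeq2 or limma-voom). For 5 of these 8 the groups did not overlap, 1 higher and 4 lower, against 22.9% of all tested genes in either direction. Icam1, the ligand of LFA-1, was at 1328, 2345 and 1086 CPM in GLUT1EC-/- 1 to 3 and at 1397, 1747 and 1380 CPM in WT 1 to 3. Vcam1, the ligand of the Itga4 product, was at 281, 272 and 204 CPM in GLUT1EC-/- 1 to 3 and at 352, 468 and 283 CPM in WT 1 to 3 (log2 fold change -0.54, SE 0.21, edgeR adjusted p = 0.293).

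Among the 20 other chains no gene passed, with 4 higher and 1 lower at an unadjusted p under 0.05. DESeq2 called 1 higher and 1 lower, and limma-voom 0. By value 14 of the 20 were higher, and their summed level was 2118 to 2283 CPM in the libraries labelled GLUT1EC-/- and 1590 to 1901 CPM in WT. Itgb1 made up the largest part of these sums. The groups did not overlap for 4 of them, against 22.9% of all tested genes: Itga5, Itgb1 and Itga3 were higher in every library labelled GLUT1EC-/-, and Itga7 was lower.

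Itga5, which with Itgb1 forms the main fibronectin receptor, came nearest to the threshold. It was at 147, 151 and 156 CPM in GLUT1EC-/- 1 to 3 and at 103, 101 and 89.3 CPM in WT 1 to 3. The spread within each group was small beside the gap between them, and the edgeR log2 fold change was 0.63 (SE 0.12; adjusted p = 0.0525). It passed by DESeq2 (adjusted p = 0.000143) and without GLUT1EC-/- 2 (edgeR adjusted p = 0.01), where 5.92% and 5.73% of all tested genes passed. Over the other 12 alternatives the value of Itga5 stayed between 0.57 and 0.66 without a call. Within the 200s and the 500s the log2 ratio of mean CPM was 0.53 and 0.78. Itgb1 was at 774, 825 and 815 CPM in GLUT1EC-/- 1 to 3 and at 648, 693 and 600 CPM in WT 1 to 3 (log2 fold change 0.31, SE 0.13, edgeR adjusted p = 0.307).

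The promoters of both fibronectin receptor chains are printed here with those of Itgam and Itgax, which are neighbours on chromosome 7 and had fold changes of opposite sign by value. They are RefSeq windows of 300 bases on GRCm38.p6, from 250 bases before to 50 after the start of the gene, and 24 of the 35 genes have such an entry. Capitals mark GAGGAA, the letters of the box bound by the myeloid factor PU.1, and GGGCGG, the GC box bound by Sp1, each on either strand (as TTCCTC and CCGCCC on the other). The windows are chr7:128062390-128062689 (plus strand) for Itgam, chr7:128129300-128129599 (plus strand) for Itgax, chr15:103366742-103367041 (minus strand) for Itga5 and chr8:128685404-128685703 (plus strand) for Itgb1.
Itgam: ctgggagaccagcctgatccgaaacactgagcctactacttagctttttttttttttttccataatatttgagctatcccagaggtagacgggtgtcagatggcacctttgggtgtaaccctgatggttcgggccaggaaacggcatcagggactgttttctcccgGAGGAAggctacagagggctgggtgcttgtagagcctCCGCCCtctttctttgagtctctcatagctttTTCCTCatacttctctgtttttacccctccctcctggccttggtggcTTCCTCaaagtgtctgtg
Itgax: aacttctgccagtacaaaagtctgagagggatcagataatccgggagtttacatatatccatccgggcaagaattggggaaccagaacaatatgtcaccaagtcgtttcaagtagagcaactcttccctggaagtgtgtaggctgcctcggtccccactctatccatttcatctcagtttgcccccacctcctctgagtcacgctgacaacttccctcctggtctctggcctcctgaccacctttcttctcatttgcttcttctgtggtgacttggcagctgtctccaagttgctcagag
Itga5: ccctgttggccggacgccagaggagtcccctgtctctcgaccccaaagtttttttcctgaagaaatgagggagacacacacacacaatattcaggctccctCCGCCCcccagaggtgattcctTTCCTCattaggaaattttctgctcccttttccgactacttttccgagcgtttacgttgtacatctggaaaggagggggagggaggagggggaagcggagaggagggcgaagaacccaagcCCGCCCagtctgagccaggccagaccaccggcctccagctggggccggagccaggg
Itgb1: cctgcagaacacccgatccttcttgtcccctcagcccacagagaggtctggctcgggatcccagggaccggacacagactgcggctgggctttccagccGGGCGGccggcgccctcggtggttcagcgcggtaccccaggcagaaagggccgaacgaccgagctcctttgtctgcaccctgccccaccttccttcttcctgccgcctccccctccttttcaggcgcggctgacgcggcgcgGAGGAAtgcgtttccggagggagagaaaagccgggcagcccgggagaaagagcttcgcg
Itgam held GAGGAA 3 times, 1 of them on the sense strand, and GGGCGG 1 time on the other strand. Itgax held neither. Itga5 held GAGGAA 1 time and GGGCGG 2 times, all on the other strand, and Itgb1 held each 1 time on the sense strand. No 2 matches overlapped. Of the 32851 RefSeq promoter windows of this length, 28.3% hold GAGGAA and 35.7% GGGCGG on either strand. The matches are a description of these letters and show no binding.

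No laminin or collagen receptor chain passed. Itga3 was at 157, 310 and 161 CPM in GLUT1EC-/- 1 to 3 and at 107, 132 and 128 CPM in WT 1 to 3. GLUT1EC-/- 2 stood far above the rest, and the edgeR log2 fold change of 0.77 (SE 0.27; adjusted p = 0.235) was 0.37 without it. Itga6 was at 513, 464 and 397 CPM in GLUT1EC-/- 1 to 3 and at 402, 396 and 306 CPM in WT 1 to 3, overlapping narrowly (log2 fold change 0.32, edgeR adjusted p = 0.438). Itga1 was at 246, 266 and 209 CPM in GLUT1EC-/- 1 to 3 and at 222, 227 and 162 CPM in WT 1 to 3 (log2 fold change 0.24, edgeR adjusted p = 0.567). Itgb4, the beta chain that joins Itga6 in hemidesmosome-type contacts, was at 40.5 ± 5.4 CPM in the libraries labelled GLUT1EC-/- and 37.8 ± 4.7 CPM in WT. Itga7, a laminin receptor chain known from muscle and mural cells, was at 52.5, 54.1 and 57.4 CPM in GLUT1EC-/- 1 to 3 and at 65.2, 81.0 and 80.8 CPM in WT 1 to 3. Its groups did not overlap, and the edgeR log2 fold change was -0.47 (SE 0.13; adjusted p = 0.158; adjusted p = 0.0461 by DESeq2). Itga7 shares exon positions with Mettl7b on the other strand, and with no strand setting stated its count is uncertain.

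**Figure D5:**
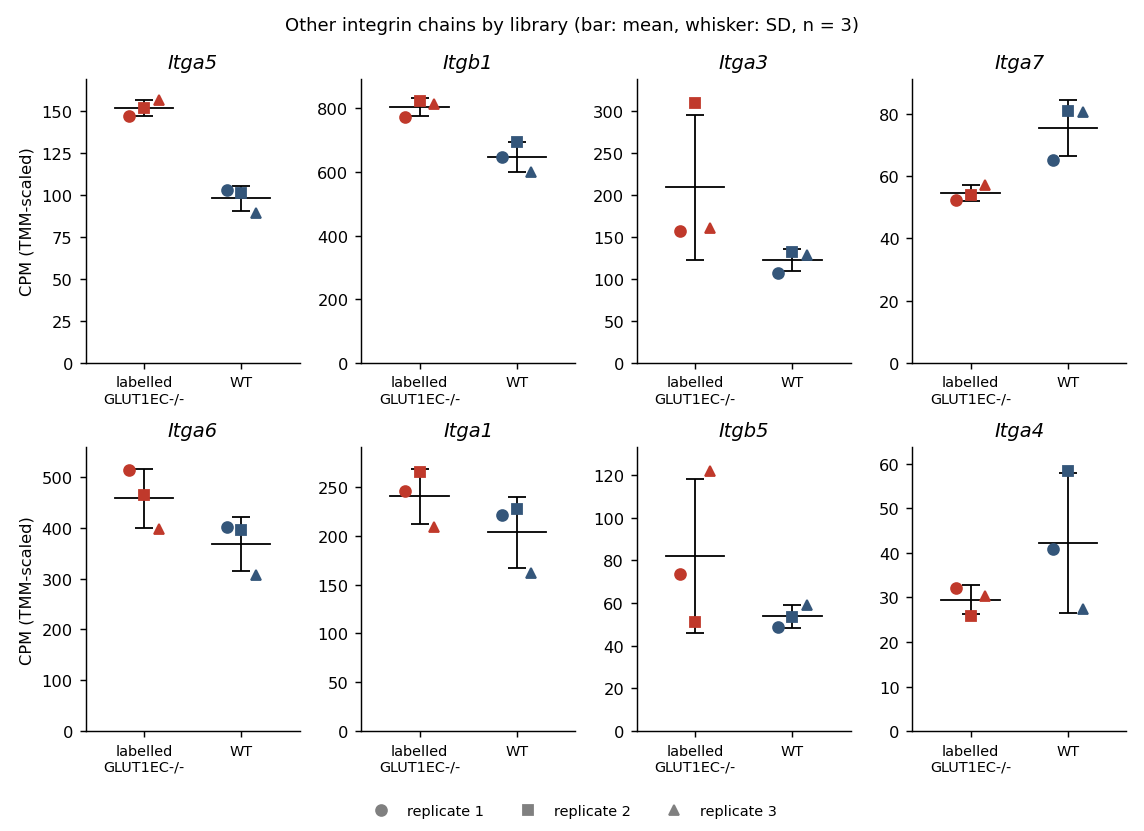
CPM of 8 integrin chains outside the leukocyte set in each library, with the mean and SD of 3 libraries per group and a marker shape per replicate. Itga5 lies at 147 to 156 CPM in the libraries labelled GLUT1EC-/- and at 89.3 to 103 CPM in WT, and GLUT1EC-/- 2 stands apart for Itga3.

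The chains that pair with alpha-v gave no call. Itgav itself was at 31.1 ± 2.1 CPM in the libraries labelled GLUT1EC-/- and 26.9 ± 5.8 CPM in WT (SD, n = 3 each). Itgb5 was at 73.7, 50.9 and 122 CPM in GLUT1EC-/- 1 to 3 and at 48.5, 53.5 and 59.1 CPM in WT 1 to 3. The value of GLUT1EC-/- 2 lay among those of WT, the other libraries labelled GLUT1EC-/- lay above them, and the edgeR log2 fold change was 0.61 (SE 0.28; adjusted p = 0.381). Without GLUT1EC-/- 2, Itgb5 passed at 0.86 (edgeR adjusted p = 0.0373), in a fit where 5.73% of all tested genes passed. Without GLUT1EC-/- 3 its log2 fold change was 0.21. Itgb8, whose product with alpha-v activates TGF-beta and is known from astrocytes and microglia, was at 3.98 ± 1.48 CPM in the libraries labelled GLUT1EC-/- and 2.96 ± 0.18 CPM in WT. Itgb6, an epithelial chain, was at 0.332 ± 0.228 CPM in the libraries labelled GLUT1EC-/- and 0.314 ± 0.283 CPM in WT.

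The remaining alpha chains were low and did not pass. Itga9, which binds tenascin and osteopontin, was at 24.0, 29.0 and 28.6 CPM in GLUT1EC-/- 1 to 3 and at 16.5, 24.4 and 18.0 CPM in WT 1 to 3 (log2 fold change 0.47, SE 0.18, edgeR adjusted p = 0.286). Itga8, a chain of mural cells that binds nephronectin, was at 14.8 ± 4.6 CPM in the libraries labelled GLUT1EC-/- and 18.0 ± 3.3 CPM in WT. The collagen-binding chains Itga10, Itga2 and Itga11 were at 14.0 ± 2.3, 0.647 ± 0.262 and 0.467 ± 0.301 CPM in the libraries labelled GLUT1EC-/- and at 15.3 ± 1.2, 0.741 ± 0.095 and 0.320 ± 0.093 CPM in WT.

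None of the 10 adaptors passed, and none had an unadjusted p under 0.05 or a call by DESeq2 or limma-voom. The groups overlapped for all 10. Tln1, talin, was at 545, 431 and 562 CPM in GLUT1EC-/- 1 to 3 and at 533, 527 and 463 CPM in WT 1 to 3. The log2 fold change of Tln1 was 0.01 (SE 0.15), and its sign turned under library size alone and without WT 3, GLUT1EC-/- 1 or GLUT1EC-/- 3. Tln2, the second talin, was at 88.0 ± 17.6 CPM in the libraries labelled GLUT1EC-/- and 86.2 ± 8.2 CPM in WT. Fermt2, the kindlin of non-blood cells, was at 371, 436 and 323 CPM in GLUT1EC-/- 1 to 3 and at 380, 383 and 334 CPM in WT 1 to 3. Fermt3, the kindlin of blood cells and platelets, was at 24.0, 22.5 and 28.3 CPM in GLUT1EC-/- 1 to 3 and at 20.0, 24.8 and 27.6 CPM in WT 1 to 3. Its edgeR log2 fold change of 0.05 (SE 0.17; adjusted p = 0.918) stood beside -3.26 for Itgal, and the difference between the genes was not tested. Fermt3 and Tln1 share exon positions with Trpt1 and Creb3 on the other strand, and with no strand setting stated their counts are uncertain.

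Of the complex that joins the beta chain to actin, Ilk was at 129 ± 15 CPM in the libraries labelled GLUT1EC-/- and 135 ± 3.7 CPM in WT (SD, n = 3 each). Lims1 (PINCH) was at 91.7 ± 8.0 CPM in the libraries labelled GLUT1EC-/- and 100.5 ± 14 CPM in WT. Parva (alpha-parvin) was at 104 ± 27 CPM in the libraries labelled GLUT1EC-/- and 90.8 ± 3.4 CPM in WT. Vcl, vinculin, was at 370, 265 and 330 CPM in GLUT1EC-/- 1 to 3 and at 397, 418 and 363 CPM in WT 1 to 3, with the groups overlapping through GLUT1EC-/- 1 (log2 fold change -0.29, SE 0.16, edgeR adjusted p = 0.453). Ptk2, focal adhesion kinase, was at 161 ± 27 CPM in the libraries labelled GLUT1EC-/- and 152 ± 8.5 CPM in WT. Pxn, paxillin, was at 407, 795 and 337 CPM in GLUT1EC-/- 1 to 3 and at 374, 386 and 381 CPM in WT 1 to 3. GLUT1EC-/- 2 alone stood above the rest for Pxn, and the edgeR log2 fold change of 0.43 (SE 0.29; adjusted p = 0.545) was -0.04 without it.

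Of 32 further focal adhesion genes tested, 0 passed, with 5 higher and 0 lower at an unadjusted p under 0.05 and 1 higher by DESeq2. Their median log2 fold change was 0.17. The most abundant were Tns1, tensin, at 1429 ± 469 CPM in the libraries labelled GLUT1EC-/- and 1146 ± 136 CPM in WT, and Actn4, alpha-actinin, at 1162 ± 78 CPM in the libraries labelled GLUT1EC-/- and 1170.1 ± 23 CPM in WT. Fermt1, the kindlin of epithelia, had 2 counts in all and was not tested.

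Of 24 matrix ligands of integrins, 5 rose and 0 fell, against 0.863% of all tested genes called higher. Their median log2 fold change was 0.70, and the groups did not overlap for 14, or 58.3%, all higher, against 11.7% of all tested genes. Fn1, fibronectin, the ligand of the Itga5 and Itgb1 receptor, was at 9682, 8419 and 8694 CPM in GLUT1EC-/- 1 to 3 and at 4837, 4945 and 4387 CPM in WT 1 to 3 (log2 fold change 0.92, SE 0.14, edgeR adjusted p = 0.0259). Nid1, which links laminin to collagen IV, was at 168, 186 and 186 CPM in GLUT1EC-/- 1 to 3 and at 84.2, 91.7 and 88.5 CPM in WT 1 to 3 (edgeR adjusted p = 0.016). Spp1, osteopontin, a ligand of alpha-v and Itga9 receptors, was at 129, 104 and 340 CPM in GLUT1EC-/- 1 to 3 and at 3.99, 4.79 and 6.21 CPM in WT 1 to 3 (edgeR adjusted p = 0.00997). The other members that rose were Col4a1 and Col4a2. The differences between ligands and receptor chains were not tested.

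Markers of the cells around the vessel were read beside the matrix-binding chains and ligands. Of 9 fibroblast markers, Dcn, a matrix proteoglycan, rose (log2 fold change 2.03, edgeR adjusted p = 0.00997), and the list summed to 203, 161 and 379 CPM in GLUT1EC-/- 1 to 3 and to 91.0, 107 and 98.6 CPM in WT 1 to 3. All 9 had log2 fold changes above 0, with a median of 1.34, and 8 were higher at an unadjusted p under 0.05. DESeq2 called 5 higher and limma-voom 1, with 5.92% and 0.997% of all tested genes called in either direction. The groups did not overlap for 6 of the 9, all higher, against 11.7% of all tested genes. Col1a1, Col1a2 and Col3a1 are in both this list and the matrix ligands, and Vtn is in both the pericyte list and the ligands. Of 9 pericyte markers, 0 passed the edgeR test (2 higher and 0 lower at an unadjusted p under 0.05, and 0 by DESeq2 or limma-voom). Pericyte sums were 1270 to 1614 CPM in the libraries labelled GLUT1EC-/- and 1113 to 1320 CPM in WT, led by Notch3 and Rgs5 at 441 ± 69.5 and 351 ± 46 CPM in the libraries labelled GLUT1EC-/- and 333 ± 49 and 301 ± 59 CPM in WT. Of 8 smooth muscle markers, 0 passed by any of the 3 tools or at an unadjusted p under 0.05, with sums of 1790 to 2435 CPM in the libraries labelled GLUT1EC-/- and 1878 to 2602 CPM in WT, led by Acta2 and Myh11 at 682 ± 106 and 622 ± 145 CPM in the libraries labelled GLUT1EC-/- and 735 ± 181 and 749 ± 80.2 CPM in WT.

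Of 7 astrocyte markers, 1 passed: Gfap, the filament of reactive astrocytes, rose (log2 fold change 2.97, edgeR adjusted p = 0.00669). Of the 7, 3 had log2 fold changes below 0, down to -0.90, and at an unadjusted p under 0.05, 2 were higher and 1 lower. The groups did not overlap for 2 that were higher and 2 that were lower. The astrocyte list summed to 192 to 238.95 CPM in the libraries labelled GLUT1EC-/- and 134 to 167 CPM in WT. Of 7 neuron markers, 0 passed the edgeR test (1 higher and 1 lower at an unadjusted p under 0.05, and 0 by DESeq2 or limma-voom), with sums of 14.9 to 19.7 CPM in the libraries labelled GLUT1EC-/- and 15.003 to 18.5 CPM in WT, led by Snap25 and Tubb3 at 3.93 ± 0.73 and 4.31 ± 0.60 CPM in the libraries labelled GLUT1EC-/- and 5.97 ± 0.88 and 2.94 ± 0.97 CPM in WT. The part of these cells in the values of the integrin chains was not tested.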

How the data were processed

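Per the labels' protocols, RNA of bead-sorted, uncultured brain endothelial cells was made into TruSeq stranded mRNA libraries and read as single-end reads on a NovaSeq. STAR, featureCounts and the build GRCm38 are named for the authors' pipeline, per the submitters' processing notes. Versions, annotation and strand setting are not given in the sources used here. Each deposited file lists raw counts for 23329 gene symbols, and every row has a name.

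Genes were tested with edgeR 4.0.16 (quasi-likelihood F test, robust, genotype as the only term) under R 4.3.3, after TMM scaling and filterByExpr (minimum count 10, minimum total 15). Benjamini-Hochberg adjustment ran over 14838 genes, with a threshold of 0.05, and the p-values reflect how 3 animals of a group vary. The biological coefficient of variation was 23.2%. CPM are counts scaled with TMM factors. The SE comes from the log2 fold change and the square root of F. Lengths and coordinates come from GENCODE M21 on GRCm38; a length over all annotated exons understates the level of genes with rarely used long exons. Of the 35 genes, 6 share exon positions with a coding gene on the other strand (Itga4, Itga7, Tln1, Vcl, Ilk and Fermt3), and 3 (Itgam, Itga1 and Itga10) with an annotated coding gene on the same strand, none of which is in the count files. With no strand setting stated, the counts of the first 6 are uncertain. No gene of the 35 had the same counts as another gene in all libraries.

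The genes and lists were chosen with earlier results of these data known. All 35 genes are reported, with every library's value for those that passed, whose groups did not overlap or that were abundant. Of each other list up to 3 members that passed are named by adjusted p, or the 2 most abundant; of the endothelial list these are given with the depth. Alternatives were DESeq2 1.42.0, limma-voom (limma 3.58.1), RLE scaling, library size alone, non-robust dispersion, no filter, at least 1 CPM in 3 libraries, a term for the animal number series, and each library left out. The tests were tried on simulated counts. Precision is limited by 3 animals per group. The result of 1 marker list is not reported here.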

Additional observations from a re-analysis of the deposited data

How the results depend on the processing

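Of the 35 genes, 24 kept the sign of their fold change under each of the 14 alternatives that tested them, and 11 did not. The filter at 1 CPM left out Itga2, Itga11, Itgae and Itgb6. The count of all genes that passed was 194 and became 879 by DESeq2 and 14 with the animal number series as a term. The count among the 35 genes was 1 and became 3 by DESeq2. The count among the other lists was 17 and became 42 by DESeq2 and 6 with the series as a term. With single libraries left out these 3 counts ran from 0 to 862, 0 to 3 and 0 to 44. The zeros came without WT 1 for the first count, without WT 1, WT 2, WT 3 or GLUT1EC-/- 1 for the second and without WT 1, WT 2 or WT 3 for the last, and the highest values came without GLUT1EC-/- 2. The cause was not tested. Signs turned under library size alone for Tln1 (-0.021), Tln2 (-0.00014) and Fermt2 (-0.017), and with the series as a term for Fermt3 (-0.0100). With single libraries left out, the log2 fold change ran from -0.56 to 0.030 for Itga2, -0.13 to 0.82 for Itga11, -0.026 to 0.41 for Itgb3, -0.016 to 0.17 for Itgb4, -0.47 to 1.14 for Itgb6, -0.057 to 0.12 for Tln1, -0.078 to 0.18 for Tln2, -0.082 to 0.14 for Fermt2, -0.080 to 0.15 for Fermt3, -0.071 to 0.17 for Ptk2 and -0.036 to 0.66 for Pxn. No paired analysis was possible because the animal numbers in the labels differ between the groups and pair no animals. With 3 animals per group, a p that misses the threshold does not show that a gene was unchanged.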

Other observations

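Other integrin genes in the count files, looked up by symbol after the values had been seen, were near the limit of detection. Itgad, the fourth alpha chain that pairs with Itgb2, was at 0, 0.120 and 0.0812 CPM in GLUT1EC-/- 1 to 3 and at 0.0309, 0.175 and 0 CPM in WT 1 to 3, and was not tested. Itgb2l, a beta chain of mouse neutrophils, was at 0.313, 0.0299 and 0 CPM in GLUT1EC-/- 1 to 3 and at 0.0309, 0 and 0.0246 CPM in WT 1 to 3. Neither gene had counts in every library.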
